A study of Mus musculus with 6 samples.

Results

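Expression of 10 genes that govern the exit from the G1 phase of the cell cycle was examined in primary cardiomyocytes from neonatal mice, with and without the Noonan syndrome variant RIT1 M90I. The 10 genes encode the D-type cyclins (Ccnd1, Ccnd2 and Ccnd3), their kinases (Cdk4 and Cdk6), inhibitors of cyclin-dependent kinases (Cdkn1a, Cdkn1b and Cdkn2c) and pocket proteins (Rb1 and Rbl1). They were taken by name from the 54532 genes of the RNA-seq table through their Ensembl identifiers, and all 10 were found. Cardiomyocytes, the contractile cells of the heart, came from mice that carry the variant in a conditional form at the Rit1 locus, where Cre recombinase turns on its expression. The cultures were infected on day 3 after isolation. The 3 AdGFP samples received an adenovirus for GFP and are labelled Rit1 +/+, and the 3 AdCre samples received an adenovirus for GFP-Cre and are labelled Rit1 M90I/+. Cells of both groups were plated at about one heart per well after preplating, and all were exposed to adenovirus and GFP. Wild-type cells with Cre are not among the samples, so the effects of the recombinase and of the variant cannot be told apart.

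D-type cyclins are made in response to mitogens, and their transcription is a known output of RAS-MAPK signaling. They bind and activate CDK4 and CDK6, which phosphorylate the retinoblastoma protein and its relatives and so release E2F transcription factors. The CIP/KIP proteins p21 (Cdkn1a) and p27 (Cdkn1b) inhibit CDK2 complexes and also bind cyclin D complexes, whereas the INK4 protein p18 (Cdkn2c) binds CDK4 and CDK6 directly. Cardiomyocytes leave the cell cycle soon after birth, and D-type cyclins fall in the heart at that time.

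The D-type cyclins dock on the retinoblastoma protein through a short motif near their start, known as LxCxE. The first 60 coding bases of each gene are shown because the 3 cyclins share this element. They were read from GENCODE M21 transcripts (GRCm38) on the strand of the gene, at chr7:144939634-144939693 (minus strand) for Ccnd1, chr6:127150714-127150773 (minus strand) for Ccnd2 and chr17:47593655-47593714 (plus strand) for Ccnd3. The 5 codons of the motif are in capitals.
Ccnd1: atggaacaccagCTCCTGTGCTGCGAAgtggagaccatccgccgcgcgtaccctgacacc
Ccnd2: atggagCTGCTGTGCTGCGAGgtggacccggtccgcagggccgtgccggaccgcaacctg
Ccnd3: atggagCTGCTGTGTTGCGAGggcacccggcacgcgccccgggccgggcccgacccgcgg
The motif lies at codons 5 to 9 of the 295 codons of Ccnd1, and at codons 3 to 7 of Ccnd2 (289 codons) and of Ccnd3 (292 codons).

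Levels are given as FPKM, the fragments per kilobase of exon, scaled to the depth of the library. The length is that of all annotated exons of a gene together (4709 bases for Ccnd1, 9409 for Ccnd2 and 8775 for Ccnd3). A transcript that uses only some of these exons is understated, so levels of different genes compare only roughly. Reads worked back from these values came to between 25.3 and 26.5 M per AdGFP sample and between 26.0 and 32.4 M per AdCre sample (M, megareads). Rit1 differed little between the groups (8.55 ± 0.774 against 9.19 ± 0.351 FPKM, SD, n = 3 each, limma adjusted p = 0.84). A value per gene gives no account of how much of the transcript carried M90I. Differences are on the scale of log2(FPKM + 0.1), AdCre minus AdGFP, and were tested two-sided in limma over the 13794 genes whose mean level reached 0.5 FPKM. A gene passed at an adjusted p under 0.05. Of all genes tested, 0.00725% passed with group as the only term, and 10.2% had an unadjusted p under 0.05. Same-numbered samples of the groups deviated together, so a second fit with the replicate number as a block is given where it changed a call. With the block 2.64% of genes passed as higher in AdCre and 3.51% as lower. The groups did not overlap, with every AdCre sample above every AdGFP sample, for 7.36% of genes, and in the opposite order for 8.02%.

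All 10 genes exceeded the minimum level. With group as the only term, 0 of the 10 passed in limma, 3 had an unadjusted p under 0.05 (Ccnd1, Ccnd2 and Cdkn1a, beside 10.2% of all genes), and 0 passed with voom on the recovered reads. With the block, the same 3 genes passed, and all 3 were higher in AdCre (3 of 10, beside 2.64% of all genes). The groups did not overlap for these 3 genes, again with AdCre higher (beside 7.36% of all genes), and overlapped for the other 7. The 10 genes were chosen with earlier results of these samples known, and Ccnd1 is a gene the study singled out on the same samples, so these counts describe the genes and are not independent support. The median log2 fold change of the 10 genes was -0.0043, beside -0.0022 for all genes tested.

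**Figure D1:**
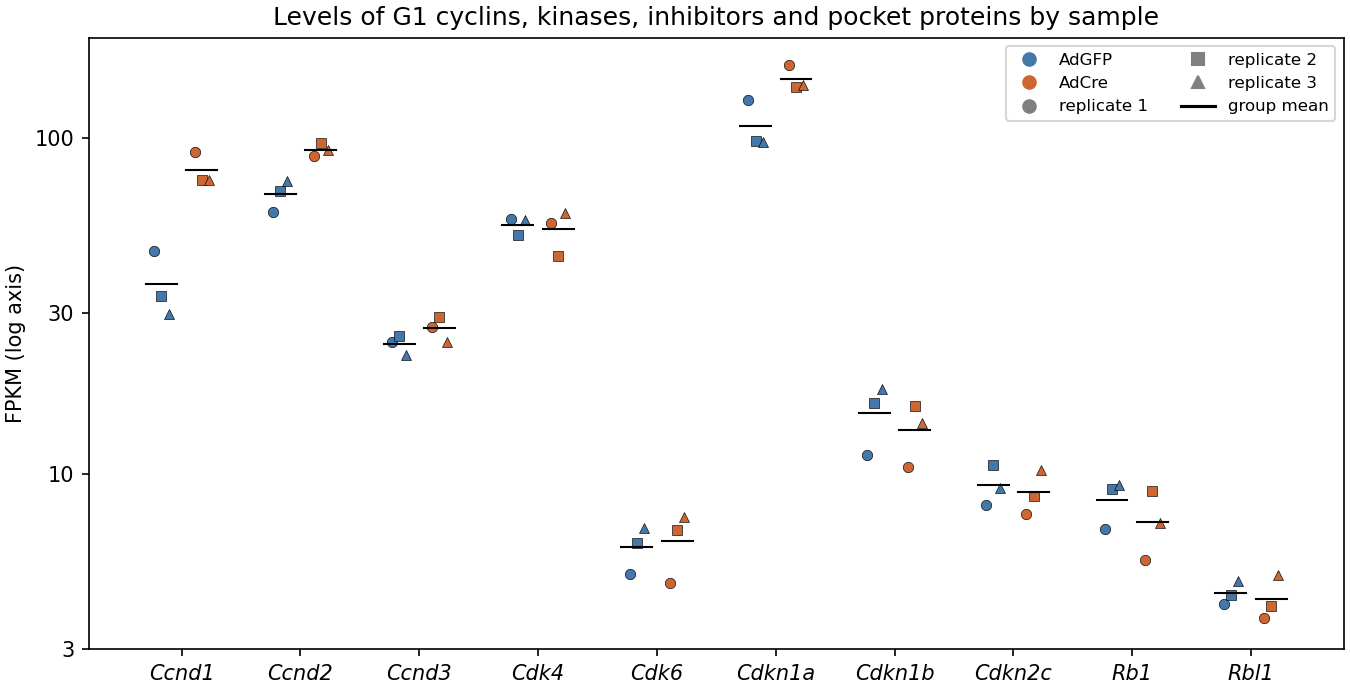
Level of each of the 10 genes in FPKM (log axis) in the 3 AdGFP samples (blue) and the 3 AdCre samples (orange), with symbols for the replicate number and a line at each group mean. Ccnd1, Ccnd2 and Cdkn1a show groups that do not overlap, and the AdCre samples of Ccnd1 lie between 74.7 and 90.9 FPKM.

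Ccnd1 (cyclin D1, chromosome 7, 144929931 to 144939925, minus strand) had the largest difference of the 10 genes. It was at 46.1, 33.7 and 29.9 FPKM in AdGFP replicates 1, 2 and 3, and at 90.9, 74.7 and 74.7 FPKM in AdCre replicates 1, 2 and 3. Every AdCre sample was above every AdGFP sample, and replicate 1 was the highest of its group in both. On the log2 scale the groups differed by 1.15 (standard error 0.19), which is 2.21-fold (95% interval 1.63 to 3.01). The limma adjusted p was 0.144 without the block and 0.0097 with it. The difference was 0.98, 1.15 and 1.32 on the log2 scale within replicates 1, 2 and 3. With the block, Ccnd1 also passed without pair 1 (0.0035) or pair 2 (0.0412), but not without pair 3 (limma adjusted p = 0.069), without the filter on low values (0.0509) or without an intensity trend (0.0582). In bulk cultures a change in the share of a cell type cannot be told apart from a change in RNA per cell.

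Of the exon bases of Ccnd1, 23.4% lie under exons of LTO1, a gene that runs the other way, and the use of strand in counting is not given in the sources used here. LTO1 had group means of 2.58 FPKM without and 2.45 FPKM with Cre. Its log2 fold change was -0.07 (limma adjusted p = 0.924). The effect of the overlap on the values of either gene was not tested.

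Ccnd2 (cyclin D2, chromosome 6, 127125162 to 127152193, minus strand) was at 60.1, 69.4 and 74.5 FPKM in AdGFP replicates 1, 2 and 3, and at 88.2, 96.6 and 92.1 FPKM in AdCre. The groups did not overlap, and replicate 1 was the lowest of its group in both. AdCre exceeded AdGFP by 0.45 on the log2 scale (standard error 0.13), or 1.36-fold (95% interval 1.11 to 1.68). The limma adjusted p was 0.329 without the block and 0.0388 with it. With the block it did not pass when pair 1, 2 or 3 was left out (limma adjusted p = 0.0718, 0.156 and 0.112), without the filter (0.114) or without a trend (0.111).

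Ccnd3 (cyclin D3, chromosome 17, 47505051 to 47599691, plus strand) differed least of the D-type cyclins. It was at 24.6, 25.7 and 22.6 FPKM in AdGFP replicates 1, 2 and 3, and at 27.3, 29.3 and 24.7 FPKM in AdCre. The groups overlapped, although the AdCre sample was the higher of each of the 3 pairs. Its log2 fold change was 0.16 (95% interval -0.12 to 0.44), with limma adjusted p-values of 0.74 without and 0.247 with the block. It fell to 0.097 without AdCre replicate 2 and 0.10 without AdGFP replicate 3, and was 0.245 after rescaling to TPM.

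The pool of D-type cyclin mRNA, taken as the summed FPKM of the 3 genes, did not overlap between the groups. It was 130.8, 128.8 and 127.0 FPKM in AdGFP replicates 1, 2 and 3 and 206.5, 200.7 and 191.5 FPKM in AdCre. The ratio of the group means was 1.55, and the ratio within replicates 1, 2 and 3 was 1.58, 1.56 and 1.51. No AdCre sample came near the AdGFP range. The groups of Ccnd1 and of Ccnd2 did not overlap on their own, so the sum restates these differences. The sum varied by an SD of 1.91 FPKM in AdGFP, where Ccnd1 alone varied by 8.48 and Ccnd2 by 7.32. In AdCre the SD of the sum was 7.55 FPKM, between that of Ccnd2 (4.19) and that of Ccnd1 (9.36). Ccnd1 was highest in the AdGFP sample in which Ccnd2 was lowest.

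The make-up of the pool, drawn from the same values, also differed. Ccnd1 made up 35.3, 26.2 and 23.6% of it in AdGFP and 44.0, 37.2 and 39.0% in AdCre. Ccnd3 made up between 17.8 and 20.0% in AdGFP and between 12.9 and 14.6% in AdCre. For both genes the groups did not overlap, Ccnd1 holding the larger and Ccnd3 the smaller share in AdCre. The share of Ccnd2 was 52.8 ± 6.43% in AdGFP and 46.3 ± 3.11% in AdCre (SD, n = 3 each), with overlapping groups. Shares within a sample do not depend on how its library was scaled, but they do depend on the exon length used for each gene.

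**Figure D2:**
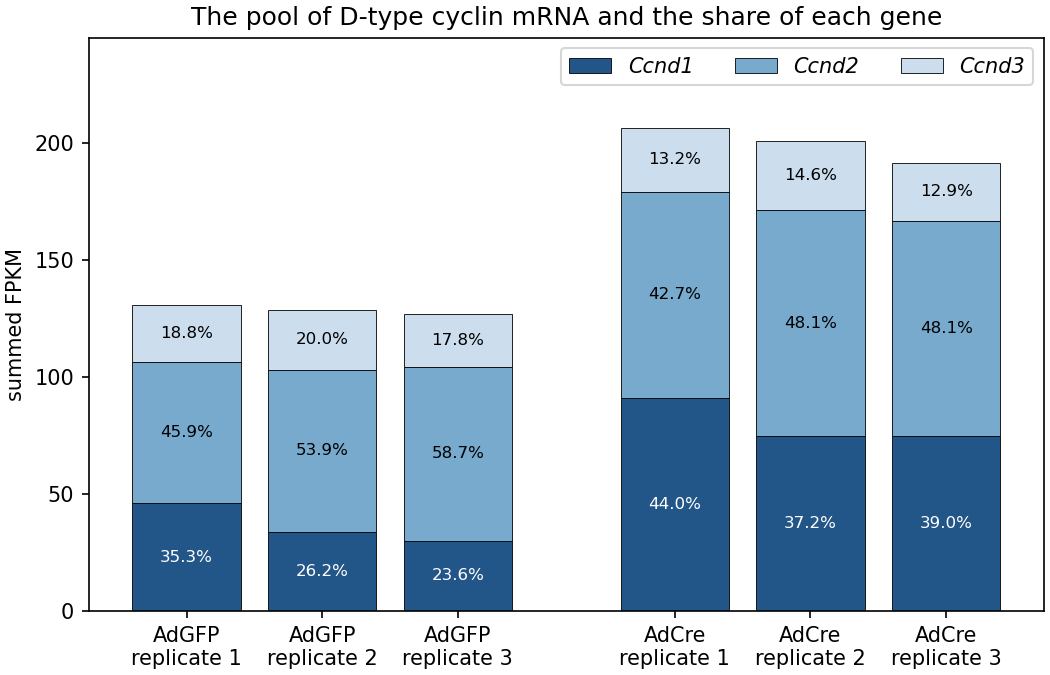
Summed FPKM of Ccnd1, Ccnd2 and Ccnd3 in each of the 6 samples as stacked bars, with the percent share of each gene. The bars reach 127.0 to 130.8 FPKM in AdGFP and 191.5 to 206.5 FPKM in AdCre, and the Ccnd1 share is larger in every AdCre sample than in any AdGFP sample.

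The kinases that these cyclins activate had overlapping groups. Cdk4 (chromosome 10, 127063534 to 127067920, plus strand) was at 57.1, 51.4 and 57.1 FPKM in AdGFP replicates 1, 2 and 3, and at 55.9, 44.6 and 59.6 FPKM in AdCre. Replicate 2 was the lowest in both groups, and the groups overlapped. The log2 fold change was -0.06 (95% interval -0.40 to 0.28, limma adjusted p = 0.946) and turned to 0.03 when values were rescaled to TPM, which gives every sample the same sum over genes. The interval leaves out a change of the size seen for Ccnd1. Exons of Tspan31, which runs the other way, overlie 19.7% of the Cdk4 exon bases, and group means of Tspan31 were 32.9 FPKM (AdGFP) and 35.4 FPKM (AdCre).

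Cdk6 (chromosome 5, 3341485 to 3531008, plus strand), the second kinase of D-type cyclins, was at 5.04, 6.20 and 6.88 FPKM in AdGFP replicates 1, 2 and 3, and at 4.73, 6.79 and 7.42 FPKM in AdCre. Replicate 1 was the lowest and replicate 3 the highest of both groups, and the groups overlapped. The log2 fold change was 0.05 (95% interval -0.44 to 0.54, limma adjusted p = 0.975). Cdk4 thus stood at 55.2 ± 3.33 FPKM beside 6.04 ± 0.93 FPKM for Cdk6 in AdGFP (SD, n = 3 each), with no overlap of the 2 genes.

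Cdkn1a (p21, chromosome 17, 29090976 to 29100727, plus strand), an inhibitor that p53 and mitogenic signals can induce, had the highest level of the 10 genes in both groups. It was at 129.5, 98.2 and 97.5 FPKM in AdGFP replicates 1, 2 and 3, and at 164.4, 142.2 and 144.1 FPKM in AdCre. Every AdCre sample was above every AdGFP sample, and replicate 1 was the highest of its group in both, as for Ccnd1. AdCre exceeded AdGFP by 0.48 on the log2 scale (standard error 0.16), or 1.40-fold (95% interval 1.08 to 1.80). The limma adjusted p was 0.373 without the block and 0.0328 with it. With the block it passed without pair 1 (0.0243) and not without pair 2 (0.146) or pair 3 (limma adjusted p = 0.141), without the filter (0.111) or without a trend (0.1). For Ccnd1, Ccnd2 and Cdkn1a alike, the exact permutation test of 3 samples against 3 gave 0.1, the smallest p this design allows.

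Cdkn1b (p27, chromosome 6, 134920401 to 134925513, plus strand), which holds resting cells in G1, was at 11.4, 16.2 and 17.8 FPKM in AdGFP replicates 1, 2 and 3, and at 10.5, 15.9 and 14.2 FPKM in AdCre. The AdCre sample was the lower of each pair, but the groups overlapped. Its log2 fold change was -0.16 (95% interval -0.68 to 0.37), with limma adjusted p-values of 0.889 without and 0.349 with the block. Leaving out AdCre replicate 1 brought it to 0.01.

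The summed FPKM of Cdkn1a and Cdkn1b was 140.9, 114.3 and 115.3 in AdGFP replicates 1, 2 and 3, and 174.9, 158.1 and 158.2 in AdCre. The groups did not overlap, and the group means stood in a ratio of 1.33, beside 1.55 for the D-type cyclins. The D-type cyclin pool divided by this sum was 0.929, 1.13 and 1.10 in AdGFP and 1.18, 1.27 and 1.21 in AdCre. This quotient was higher in every AdCre sample than in any AdGFP sample, by a ratio of means of 1.16. These sums are descriptions of mRNA levels and were not tested.

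Cdkn2c (p18, chromosome 4, 109660876 to 109667189, minus strand) was at 8.04, 10.6 and 9.08 FPKM in AdGFP replicates 1, 2 and 3, and at 7.57, 8.58 and 10.3 FPKM in AdCre. The groups overlapped and the pairs disagreed in direction, with a log2 difference of -0.31 in pair 2 and 0.18 in pair 3. The log2 fold change was -0.07 (95% interval -0.46 to 0.31, limma adjusted p = 0.938), and 0.02 after rescaling to TPM.

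Of the pocket proteins, which hold E2F factors in check, Rb1 (chromosome 14, 73183673 to 73325822, minus strand) was at 6.83, 8.99 and 9.24 FPKM in AdGFP replicates 1, 2 and 3, and at 5.51, 8.86 and 7.11 FPKM in AdCre. The AdCre sample was the lower of each pair, by 0.31, 0.02 and 0.37 on the log2 scale, and the groups overlapped. Its log2 fold change was -0.23 (95% interval -0.72 to 0.26), with limma adjusted p-values of 0.788 without and 0.234 with the block. It was -0.061 without AdCre replicate 1 and -0.398 without AdCre replicate 2. Exons of Rcbtb2 and Lpar6, which run the other way, overlie 14.9% of the Rb1 exon bases.

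Rbl1 (p107, chromosome 2, 157145893 to 157204534, minus strand) was the lowest of the 10 genes by mean in both groups, at 4.08, 4.34 and 4.77 FPKM in AdGFP replicates 1, 2 and 3 and 3.72, 4.03 and 4.98 FPKM in AdCre. Replicate 1 was the lowest and replicate 3 the highest in both groups, which overlapped. The log2 fold change was -0.06 (95% interval -0.42 to 0.30, limma adjusted p = 0.95), and 0.03 after rescaling to TPM. The lowest read number behind any value of the 10 genes was 534 (Cdkn2c), at which counting error is 4.33%. This is below the spread between replicates of that gene.

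**Figure D3:**
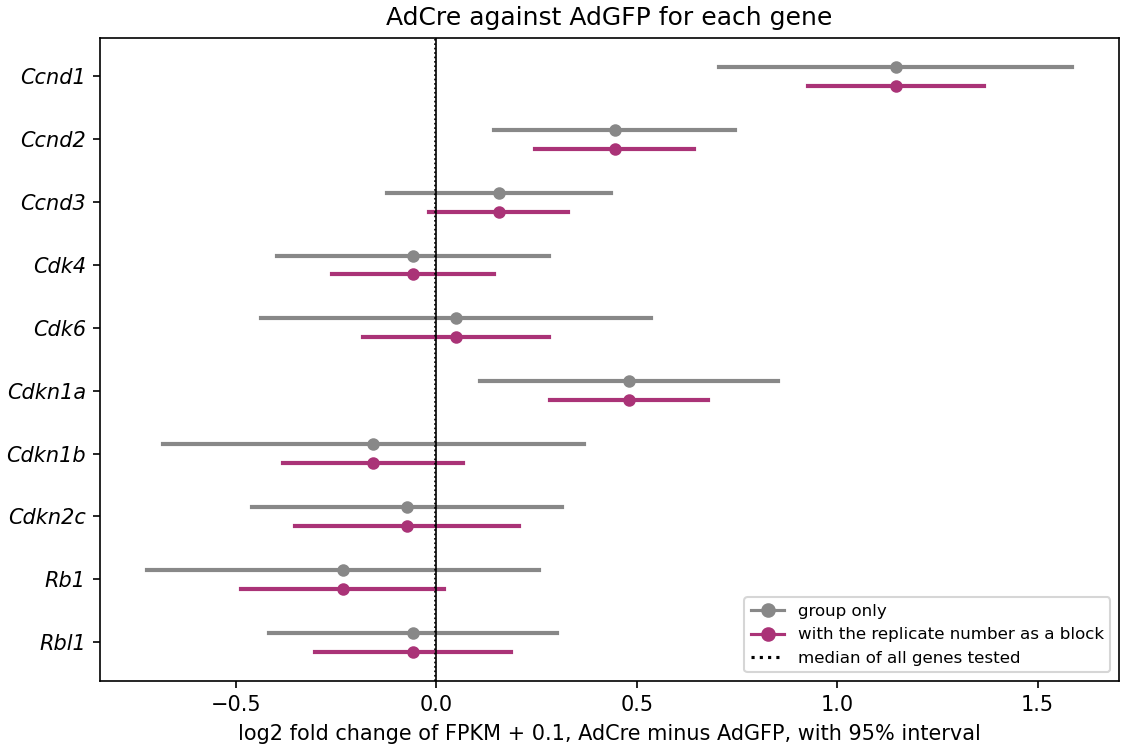
Log2 fold change of FPKM + 0.1, AdCre minus AdGFP, for each of the 10 genes, with 95% intervals from limma with group as the only term (grey) and with the replicate number as a block (purple). The dotted line is the median of all genes tested (-0.0022). The intervals of Ccnd1, Ccnd2 and Cdkn1a lie above 0 in both fits and those of the other 7 genes include 0.

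The standard error was smaller with the block than without it for all 10 genes. The AdCre sample was the higher of all 3 pairs for Ccnd1, Ccnd2, Ccnd3 and Cdkn1a, and the lower of all 3 for Cdkn1b and Rb1. The pairs disagreed for Cdk4, Cdk6, Cdkn2c and Rbl1. Over all genes tested, 48.4% had the same direction in all 3 pairs. The standard error of Ccnd1 went from 0.19 to 0.089 with the block and that of Cdk6 from 0.21 to 0.094. Without pair 3, 0 of the 10 genes passed with the block, and 1 gene passed over all genes.

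**Figure D4:**
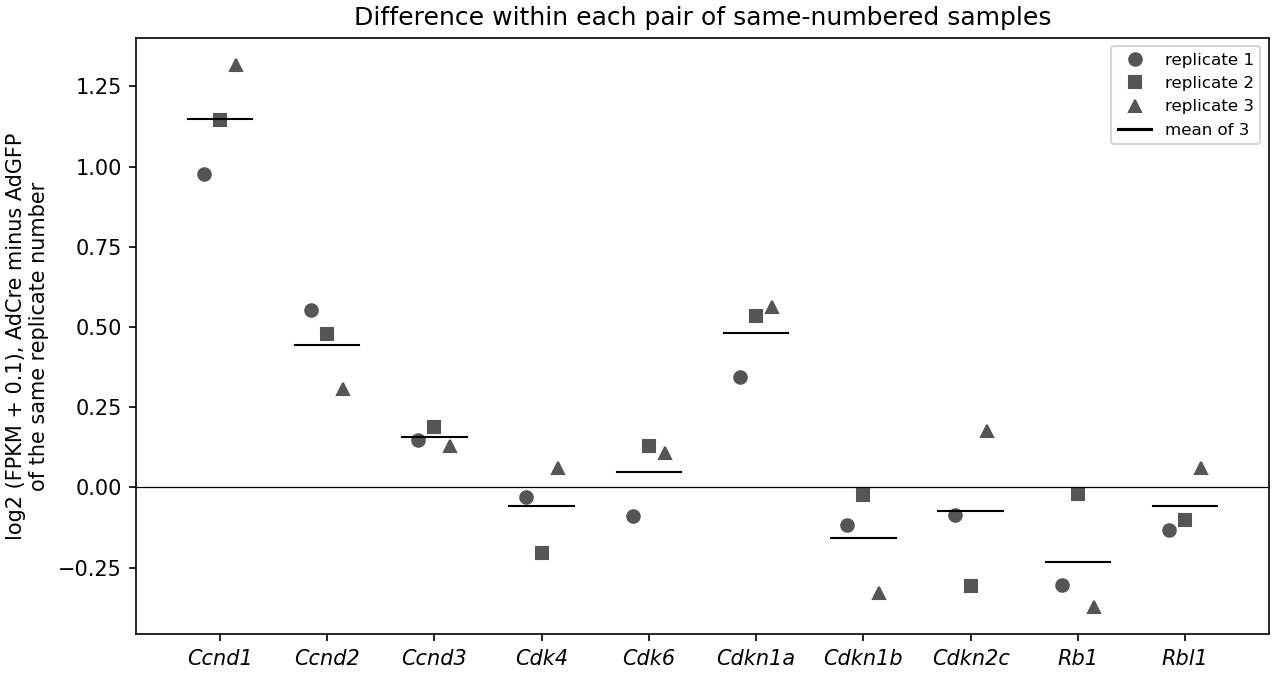
Difference in log2(FPKM + 0.1) between the AdCre and the AdGFP sample with the same replicate number, for each of the 10 genes, with a line at the mean of the 3 pairs. Ccnd1 lies at 0.98, 1.15 and 1.32, and Cdk4, Cdk6, Cdkn2c and Rbl1 have pairs on both sides of 0.

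The order of the levels changed at a single place. In AdGFP the order by mean was Cdkn1a (108.4 FPKM), Ccnd2 (68.0), Cdk4 (55.2), Ccnd1 (36.6), Ccnd3 (24.3), Cdkn1b (15.1), Cdkn2c (9.26), Rb1 (8.36), Cdk6 (6.04) and Rbl1 (4.40). In AdCre, Ccnd1 stood at 80.1 FPKM, above Cdk4 at 53.3 FPKM, and the ranges of Ccnd1 and Cdk4 did not overlap in either group. Ranges of neighbours overlapped in AdGFP for Cdkn2c with Rb1 and for Rb1 with Cdk6, and in AdCre also for Ccnd2 with Ccnd1 and for Cdk6 with Rbl1. Among all genes tested, the percentile of mean level was 97.9 for Cdkn1a, 96.2 for Ccnd2, 94.5 for Ccnd1 and 94.1 for Cdk4, and 42.6 for Rbl1.

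The genes whose pattern was most like that of Ccnd1 were ranked by Pearson's r of log2(FPKM + 0.1) over the 6 samples, among 12428 other protein-coding genes. The first 5 were Cep250 (r = 0.997), Psca (0.996), 4930579G24Rik (0.993), Dusp26 (0.993) and Atp6ap2 (0.991). The 6 points share a group difference and a replicate difference, so r orders genes and is not a test. Psca, a membrane-anchored glycoprotein, was at 1.22, 0.413 and 0.142 FPKM in AdGFP replicates 1, 2 and 3 and at 13.4, 8.11 and 5.92 FPKM in AdCre. Dusp26, a dual-specificity phosphatase, was at 0.632, 0.325 and 0.334 FPKM in AdGFP and 2.55, 1.75 and 1.96 FPKM in AdCre. Of the 10 genes, Cdkn1a came closest to Ccnd1, at place 23 (r = 0.973). Ccnd2 had an r of 0.725 and Rb1 one of -0.668.

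Genes that act with the 10 were examined as lists, written from general knowledge. Of 103 listed genes, 102 were tested. With group as the only term 0 of them passed in limma, and 11 had an unadjusted p under 0.05 (a share near the 10.2% of all genes). With voom 0 passed, but Fosl1, Pim1 and Tcf7l2 were not in that fit, as their recovered reads were not whole numbers. With the block 5 passed, and all 5 were higher in AdCre (Ccne1, Pcna, Etv4, Fosl1 and Smad3), beside 2.64% of all genes. None of these 5 passed with the block when pair 3, the filter on low values or the intensity trend was left out. The median log2 fold change of the 102 genes was 0.08, with 68 higher and 34 lower. Rescaling to TPM moved the median of all genes to 0.09 and that of the listed genes to 0.18, so the medians below are to be read against the same shift.

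Partners at the passage from G1 to S phase hold Ccne1, the cyclin that activates CDK2 after the D-type cyclins have acted. Ccne1 was at 11.4, 10.2 and 10.4 FPKM in AdGFP replicates 1, 2 and 3, and at 19.5, 16.4 and 17.4 FPKM in AdCre. The groups did not overlap. AdCre exceeded AdGFP by 0.73 on the log2 scale (standard error 0.12, limma adjusted p = 0.144 without and 0.0145 with the block). The call of Ccne1 held in 6 of 10 fits with the block and was also lost without pair 2 (highest limma adjusted p = 0.0838). It was the only 1 of the 9 genes of its list to pass with the block, and the median of the list was 0.08. The other gene of the list with an unadjusted p under 0.05 was Mnat1, a subunit of the CDK-activating kinase, named after its values were seen. It was at 8.08, 7.09 and 6.86 FPKM in AdGFP replicates 1, 2 and 3 and at 5.53, 6.03 and 4.93 FPKM in AdCre, lower without overlap (log2 fold change -0.41, limma adjusted p = 0.365 without and 0.073 with the block). Among the 5 other inhibitors of cyclin-dependent kinases, 0 passed in either fit, with 1 at an unadjusted p under 0.05 and a median of -0.12. That gene was Cdkn1c (p57), at 7.40, 13.3 and 20.4 FPKM in AdGFP and 28.5, 22.3 and 22.5 FPKM in AdCre (log2 fold change 0.94, limma adjusted p = 0.426 without and 0.143 with the block). Its groups did not overlap, but its 3 AdGFP samples were spread over 7.40 to 20.4 FPKM. The log2 fold change of Cdkn1c fell to 0.56 without AdGFP replicate 1 and to 0.45 with the block without pair 1.

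Downstream, E2F and DREAM complex genes had 0 of 18 passing in either fit (1 at an unadjusted p under 0.05, median 0.07). The smallest p was that of E2f8, a repressor among the E2F factors, at 5.07, 4.42 and 4.18 FPKM in AdGFP replicates 1, 2 and 3 and 6.95, 5.55 and 6.35 FPKM in AdCre. Its log2 fold change was 0.45, with limma adjusted p-values of 0.354 without and 0.056 with the block. E2f8 passed in 3 of 10 fits with the block, those with TPM, recovered reads scaling or voom (lowest limma adjusted p = 0.0249). For target genes of E2F in S phase the median was 0.22 and 14 of 15 were higher, beside 6842 of 13794 over all genes tested. The median within replicates 1, 2 and 3 was 0.26, 0.036 and 0.44, so pair 2 showed little difference. Of the list 3 had an unadjusted p under 0.05 (among them Pcna, higher, and Rrm1, lower), and 1 passed with the block. Rrm1, a subunit of ribonucleotide reductase, was at 25.1, 24.7 and 25.6 FPKM in AdGFP replicates 1, 2 and 3 and at 21.1, 19.9 and 22.5 FPKM in AdCre, without overlap (log2 fold change -0.25, limma adjusted p = 0.488 without and 0.109 with the block). Rrm1 is named after its values were seen. The gene that passed was Pcna, the sliding clamp of DNA polymerases, at 39.0, 29.4 and 27.6 FPKM in AdGFP and 54.4, 36.6 and 42.1 FPKM in AdCre. The groups overlapped, and the log2 fold change was 0.47 (limma adjusted p = 0.492 without and 0.039 with the block). Its call held in 5 of 10 fits with the block and was lost without pair 1, 2 or 3 alike (highest limma adjusted p = 0.161), and its log2 fold change fell to 0.31 without AdCre replicate 1. Of its 50-base words, 19.1% also occur in other genes, mostly the pseudogene Pcna-ps2.

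Mitotic genes had 0 of 10 passing in either fit, 0 at an unadjusted p under 0.05, and overlapping groups for all 10 (median 0.13). Cdk1, the mitotic kinase, was at 8.91, 11.1 and 9.78 FPKM in AdGFP replicates 1, 2 and 3, and at 9.40, 11.4 and 13.4 FPKM in AdCre (log2 fold change 0.19, limma adjusted p = 0.784). The difference for Cdk1 lay between 0.064 and 0.317 on the log2 scale when single samples were left out. Targets of p53 other than Cdkn1a likewise had 0 of 14 passing in either fit and 0 at an unadjusted p under 0.05, with overlapping groups for all 14 (median 0.10). Pidd1, a death-domain protein and the gene with the smallest p of that list, had a log2 fold change of 0.26 (limma adjusted p = 0.585 without and 0.23 with the block). Genes for the turnover and modification of cyclin D and its inhibitors had 0 of 12 passing in either fit and 0 at an unadjusted p under 0.05 (median -0.05, and 0.04 with TPM). Wee1, a kinase that holds CDK1 and CDK2 inactive, was at 14.3, 14.6 and 12.1 FPKM in AdGFP and 10.2, 12.4 and 10.4 FPKM in AdCre (log2 fold change -0.31, limma adjusted p = 0.504 without and 0.107 with the block).

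Transcription factors known to act on D-type cyclin genes had a median of 0.11. With group as the only term 0 of 19 tested passed and 4 had an unadjusted p under 0.05, beside 10.2% of all genes. With the block 3 passed, all higher, beside 2.64% of all genes. Of the 4, Etv5 did not pass with the block and is named after its values were seen. It was higher without overlap (log2 fold change 0.35, limma adjusted p = 0.374 without and 0.0753 with the block). Lef1 was below the minimum level. Etv4, an ETS factor downstream of MAPK signaling that the study named on these samples, was at 5.74, 3.53 and 3.27 FPKM in AdGFP replicates 1, 2 and 3, and at 15.2, 6.99 and 10.1 FPKM in AdCre. Its groups did not overlap, and its log2 fold change was 1.32 (limma adjusted p = 0.287 without and 0.0145 with the block). Its call held in 7 of 10 fits with the block (highest limma adjusted p = 0.0798). Fosl1, an AP-1 subunit, was at 13.7, 3.86 and 2.57 FPKM in AdGFP and 24.1, 10.3 and 12.2 FPKM in AdCre. Its groups overlapped and its log2 fold change was 1.47 (limma adjusted p = 0.491 without and 0.0346 with the block), from 2.17 without AdGFP replicate 1 to 0.98 without AdGFP replicate 3. The call of Fosl1 held in 5 of 9 fits with the block and was also lost without pair 2 (highest limma adjusted p = 0.1205). Of its 50-base words, 52.6% also occur in other genes, mostly in Ccdc85b on the opposite strand. Smad3, a mediator of TGF-beta signaling, was at 8.20, 9.06 and 11.0 FPKM in AdGFP and 12.3, 11.4 and 15.4 FPKM in AdCre, with a log2 fold change of 0.47 (limma adjusted p = 0.417 without and 0.043 with the block). Its groups did not overlap. The call of Smad3 held in 5 of 10 fits with the block and was lost without pair 1, 2 or 3 alike (highest limma adjusted p = 0.1714).

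**Figure D5:**
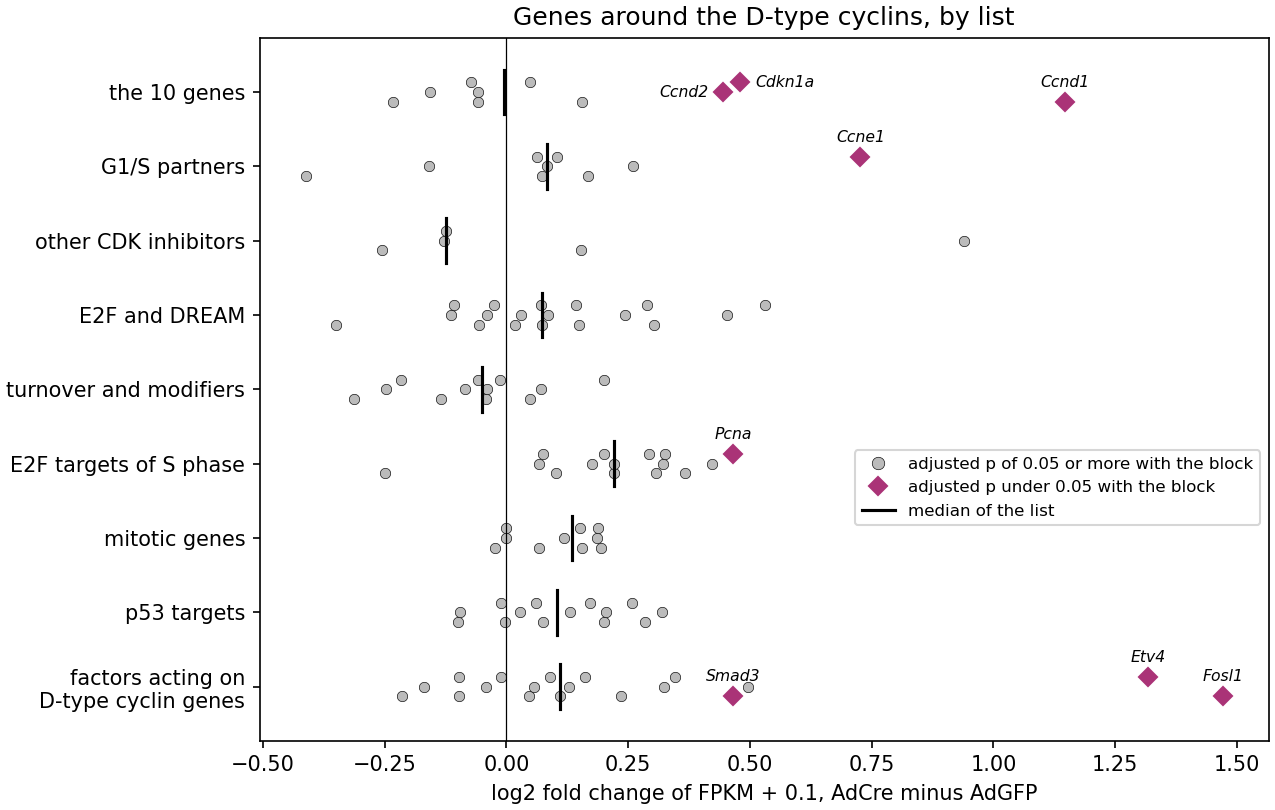
Log2 fold change of FPKM + 0.1, AdCre minus AdGFP, for the 10 genes and for each gene tested of 8 lists around them, with a line at the median of each list. Purple diamonds pass in limma with the replicate block and are named, and all 8 of them lie above 0.

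The promoters were examined for letters that such factors can bind. RefSeq start sites (GRCm38.p6) were matched for 7 of the 10 genes, with 10 entries in all. Ccnd1, Ccnd2 and Rb1 were not matched. The 250 bases before a start are shown for Cdkn1a, which was higher in AdCre with the block, and for Ccne1, which was higher beside it. They lie at chr17:29093519-29093768 (plus strand, the second of 2 entries of Cdkn1a) and chr7:38107491-38107740 (minus strand), and GC boxes are in capitals.
Cdkn1a: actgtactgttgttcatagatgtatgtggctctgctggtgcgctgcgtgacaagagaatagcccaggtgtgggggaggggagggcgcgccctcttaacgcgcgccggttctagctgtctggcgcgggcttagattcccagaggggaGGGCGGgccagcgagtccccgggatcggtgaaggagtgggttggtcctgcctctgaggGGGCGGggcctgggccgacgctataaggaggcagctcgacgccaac
Ccne1: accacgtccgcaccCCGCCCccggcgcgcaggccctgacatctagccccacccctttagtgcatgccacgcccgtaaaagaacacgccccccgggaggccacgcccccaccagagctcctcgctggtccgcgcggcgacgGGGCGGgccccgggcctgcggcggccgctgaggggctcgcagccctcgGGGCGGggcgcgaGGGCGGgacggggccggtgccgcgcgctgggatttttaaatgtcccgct
The GC box (GGGCGG on either strand) was found 2 times before this start of Cdkn1a and 4 times before Ccne1. The other entry of Cdkn1a, at chr17:29090729-29090978 (plus strand), held 0 matches of any of the letters searched. Of all 32851 promoters in the table, 32.7% held the GC box in these 250 bases, as did 7 of the 10 entries of the matched genes. The AP-1 letters TGACTCA and the CRE letters TGACGTC were in 0 of the 10 entries, beside 4.46 and 2.78% of all promoters. The ETS letters CCGGAAG were in 1 entry, that of Ccnd3, beside 6.91%. The E-box CACGTG was found 4 times before Cdk4 and 1 time before Cdk6, beside 6.02% of promoters with at least 1. E2F letters were searched as TTCGCGC, found 1 time before Rbl1, as TTCCCGC, found 1 time before Cdkn2c, and as TTGGCGC and the related form TTGCCGC, found before neither. Any of them was in 7.89% of all promoters. The TATA letters TATAAA were in 1 entry, that of Cdk6 (12.4% of all), and CCAAT in 2 (33.8%). A match in letters is a description and does not show a factor at work, nor does its absence from this window.

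Markers of cell types were examined in the same samples. With group as the only term, 0 of the markers tested passed in limma. An unadjusted p under 0.05 was found for 7 cardiomyocyte, 2 endothelial and 1 epicardial marker, beside 10.2% of all genes. With voom, also without the block, 0 passed, but Nkx2-5, Csf1r and Msln were not in that fit. Passing in the counts that follow is with the block, where 2.64% of all genes passed as higher and 3.51% as lower. By direction, 6842 of the 13794 genes tested were higher and 6952 lower. Markers of cardiomyocytes were lower in AdCre for 12 of 12 genes (7 passing with the block), and their summed level was 4765 to 8284 FPKM in AdGFP and 2530 to 4344 FPKM in AdCre, without overlap. Markers of fibroblasts, among them collagen genes, were lower for 7 of 8 (3 passing with the block), with sums of 2589 to 4644 and 2272 to 3324 FPKM. Endothelial markers were higher for 8 of 8 (3 passing with the block), with sums of 87.7 to 138.1 and 128.5 to 191.6 FPKM, and macrophage markers for 6 of 6 tested (1 passing), with sums of 44.4 to 245.5 and 80.2 to 307.4 FPKM. Smooth muscle and pericyte markers had 0 of 7 passing (819.0 to 1313 against 975.3 to 1208 FPKM), and epicardial markers had 1 of 5 passing, as lower (94.0 to 173.3 against 94.9 to 106.9 FPKM). Red blood cell markers were below the minimum, with sums of 0.229 to 0.458 and 0.257 to 2.27 FPKM. None of the listed markers was at 0 in all 6 samples, and the highest single value was 4943 FPKM for the cardiomyocyte list and 2450 FPKM for the fibroblast list. The part of these differences in the values of Ccnd1, Ccnd2, Cdkn1a and the other genes was not tested.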

How the data were processed

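The table the authors deposited gives FPKM for 1 column per sample, with 3 AdGFP and 3 AdCre samples and no pooling. Per the labels, poly-T beads selected mRNA, and random hexamers primed the cDNA. The submitters' processing notes name fastp, STAR 2.5, HTSeq 0.6.1 and mm10, without saying how strand was used. The annotation release is not given in the sources used here. Of 54532 gene identifiers, 54495 are in GENCODE M21 (GRCm38), which gave symbols, coordinates and exon lengths. FPKM times exon length was a whole multiple of 1 step per sample (tolerance 0.02 reads) for 96.8% of genes above 0, and these multiples gave the recovered reads. The denominators behind FPKM were 0.931 to 1.03 times the recovered totals, and the cause was not tested.

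Values were fitted as log2(FPKM + 0.1) in limma 3.58.1 (R 4.3.3) with lmFit and eBayes with an intensity trend, group as the only term, over genes whose mean reached 0.5 FPKM. Benjamini-Hochberg adjustment ran over all genes tested, at a threshold of 0.05. Fold changes on this scale understate those of low genes. Replicates 1 to 3 are labelled as biological, without saying what a number marks, so p-values measure the spread between these samples. Deviations from group means correlated between same-numbered samples (0.568, 0.268 and 0.506) and lay between -0.497 and 0.036 for other combinations, so samples were treated as paired by number, a choice made from the values alone. Exact permutation tests used scipy 1.17.1.

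The 10 genes and all lists were chosen with earlier results of these data known. Named genes are the 10, Rit1, up to 5 genes of each list passing with or without the block (otherwise the 1 with the smallest p) and the 5 most correlated with Ccnd1. Shared sequence is the percent of 50-base words of a gene found in other genes. Alternatives were other pseudocounts, filters and scalings, voom, no trend, the replicate block and omission of single samples or pairs.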

Additional observations from a re-analysis of the deposited data

How the results depend on the processing

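Without the block, the number of genes passing over all genes was 1, and it became 3 with a pseudocount of 1 FPKM, 4 without an intensity trend, 0 without the filter on low values and 0 with voom. Leaving out single samples gave 0 to 2 genes. With the replicate block 848 genes passed (42.9% of them higher), 875 after rescaling to TPM (61.5% higher), 874 with recovered reads scaling (54.8% higher), 784 with a pseudocount of 1 and 1470 with voom (45.4% higher). The blocked number was 772 without pair 1, 149 without pair 2, 1 without pair 3, 17 without the filter and 0 without a trend, so the share of higher and lower calls and the number of calls depend on these settings. The median of all genes was 0.09 on the log2 scale under TPM.

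Of the 10 genes, 0 passed without the block under any setting tried, including each sample left out. With the block 3 passed, and also 3 with the block and TPM, recovered reads scaling, a pseudocount of 1 or voom, 2 without pair 1 (Ccnd1 and Cdkn1a), 1 without pair 2 (Ccnd1), and 0 without pair 3, without the filter or without a trend. The log2 fold change of Ccnd1 was 1.15 with the block, 1.23 without pair 1, 1.15 without pair 2, 1.24 with TPM, 1.21 with recovered reads scaling, 1.13 with a pseudocount of 1 and 1.16 with voom (limma adjusted p between 0.00081 and 0.0412 in these), and 1.01 to 1.33 when single samples were left out. That of Ccnd2 was 0.45 with the block, 0.53 with TPM, 0.51 with recovered reads scaling, 0.44 with a pseudocount of 1 and 0.45 with voom. That of Cdkn1a was 0.48 with the block, 0.55 without pair 1, 0.57 with TPM, 0.54 with recovered reads scaling, 0.48 with a pseudocount of 1 and 0.49 with voom.

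Among the 10 genes, signs turned for Cdk4, Cdk6, Cdkn1b, Cdkn2c and Rbl1, which passed in no fit. Cdk4 went to 0.031 under TPM, with or without the block, to 0.00398 under recovered reads scaling, with or without the block, to 0.015 with the block without pair 2, and to between -0.14 and 0.066 when single samples were left out. Cdk6 lay between -0.078 and 0.24, Cdkn1b between -0.35 and 0.014, Cdkn2c between -0.19 and 0.031 and Rbl1 between -0.18 and 0.0296 when single samples were left out. Cdkn2c was 0.015 under TPM, with or without the block, and 0.044 with the block without pair 2. Rbl1 was 0.0299 under TPM and 0.00283 under recovered reads scaling, with or without the block. The log2 ratio of summed D-type cyclins was 0.63, and 0.72 under TPM and 0.69 under recovered reads scaling. Shares among the D-type cyclins, sums of inhibitors and pocket proteins and promoter matches moved by less than the spread between replicates, or by no more than 1.5 times. The settings that join the block with another choice were chosen after seeing the data. A comparison of protein sequences was not run. With 3 samples a group and no test of what a replicate number marks, calls rest on the pairing being real.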
